A study of Mus musculus with 143 samples.

Results

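RNA-rich and RNA-poor microglia were compared among cells of the postnatal mouse cerebellum that were not dividing by their mitotic genes. RNA content was read as the total gene counts of a cell divided by its counts of the External RNA Controls Consortium (ERCC) spike-ins, synthetic RNAs added to the wells. Of 143 cells on 2 plates, 97 had at most 1 of 8 mitotic genes (Mki67, Top2a, Cdk1, Cenpe, Birc5, Nusap1, Ccna2 and Pbk) at a CPM of 10 or more (CPM, counts scaled to 1000000 gene counts of the cell, spike-ins left out). These non-mitotic cells, 61 on plate 1 and 36 on plate 2, were ranked by gene counts per ERCC count within each plate. The upper tercile gave 32 RNA-rich cells, 20 on plate 1 and 12 on plate 2. The lower tercile gave 32 RNA-poor cells, again 20 on plate 1 and 12 on plate 2. The 33 cells between them and the 46 mitotic cells served as further descriptions.

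The study sequenced single live microglia of wild-type C57BL6N mice at postnatal day 7, sorted from cerebella of pooled males in a CD45low CD11b+ Gpnmb+ Clec7a+ gate and prepared by Smart-seq2, a full-length cDNA method without molecular identifiers. RNA-rich, middle and RNA-poor cells share this strain, genotype, sex, age, tissue and gate. The pooled library name in the labels holds the word adult, against an age label of P7, and the age label was followed. All cells come from 1 pool of animals, so each end is 1 sample, no test between the ends was made, and the intervals given cover counting error only.

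Microglia are the resident macrophages of the brain. In the first postnatal week a population named proliferative-region-associated microglia (PAM) is found in developing white matter, and it shares Spp1, Gpnmb, Clec7a, Lgals3 and other genes with the disease-associated microglia (DAM) of degenerating brain. The amount of RNA in a cell generally goes with its size and growth: growing cells make more ribosomes, duplicate their DNA and draw on glycolysis. CPM gives a gene's share of the counts of its cell and does not hold the spike-ins, whereas counts per ERCC count give an estimate of its amount per cell.

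The ratio that chose the cells had a median of 27.3 in RNA-rich and 17.4 in RNA-poor cells on plate 1, and of 32.1 in RNA-rich and 17 in RNA-poor cells on plate 2. At the upper limit, the lowest RNA-rich cell had 25.03 and the highest middle cell 24.95 on plate 1, against 28.89 and 28.85 on plate 2. At the lower limit, the lowest middle cell had 19.93 and the highest RNA-poor cell 19.90 on plate 1, against 20.67 and 20.16 on plate 2. The limits thus cut through a continuous range and mark no separate populations. Total gene counts differed less, with medians of 758988 in RNA-rich and 681697 in RNA-poor cells, whereas ERCC counts had medians of 24909 in RNA-rich and 38625 in RNA-poor cells. Gene counts had medians of 780678 in RNA-rich and 700492 in RNA-poor cells on plate 1. On plate 2 the RNA-rich median was slightly lower, at 650937 against 659281. There the ERCC counts had medians of 20773 in RNA-rich and 36381.5 in RNA-poor cells. More RNA in the cell, fuller recovery from the well and less spike-in dispensed cannot be told apart by this ratio. The number of ERCC species with a count was close, with medians of 28 in RNA-rich and 27.5 in RNA-poor cells.

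The ends also differed in their place on the plate and in ribosomal precursor counts. Wells on the rim of the plate held 9 of 32 RNA-rich cells (28.1%, exact binomial 95% interval 13.7 to 46.7) and 17 of 32 RNA-poor cells (53.1%, 34.7 to 70.9). The precursor RNA Rn45s took a median of 7.92% of gene counts in RNA-rich and 8.92% in RNA-poor cells on plate 1, and 11.2% in RNA-rich and 12.3% in RNA-poor cells on plate 2. Both were varied. Terciles drawn again without the rim wells, with 20 cells at each end, gave a difference in median genes detected of 1010, against 969.5 with all wells, and a median log2 CPM ratio of -0.46, against -0.68, for the homeostatic genes described below. The ranking without Rn45s gave 935 genes and a homeostatic median of -0.52.

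The microglia label held in both ends. Of 10 microglia markers, among them Csf1r, Cx3cr1 and Fcrls, 7 to 10 were read in every RNA-rich and every RNA-poor cell, with a median of 9 in each end. Gpnmb was read in 32 of 32 RNA-rich and 31 of 32 RNA-poor cells, and Clec7a in 30 RNA-rich and 27 RNA-poor cells. The 1 RNA-poor cell without a Gpnmb count, on plate 1, also had the lowest Spp1 level (501 CPM) and no count of Pkm2. With the cells lacking Gpnmb left out and the terciles drawn again, no called gene named below changed sign. The median log2 ratio of the homeostatic genes was then -0.48.

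RNA-rich cells held counts of more genes at equal depth. After every cell was thinned at random to 400000 gene counts, RNA-rich cells had a count of 2937 to 4467 genes (median 3476) and RNA-poor cells of 1501 to 3154 genes (median 2506.5). The middle cells had a median of 2932. The ends overlapped between 2937 and 3154 genes, and the difference of the medians was 985.5 genes on plate 1 and 977 on plate 2. Across single cells, the number of genes detected and the RNA ratio had a Spearman correlation of 0.89 over 61 cells of plate 1 and of 0.88 over 36 cells of plate 2. Both measures of a cell come from 1 library and share its quality and capture, so these are descriptions. Counts were also spread over more genes: on average 165.3 genes in RNA-rich and 125.1 genes in RNA-poor cells held 50% of the counts.

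**Figure D1:**
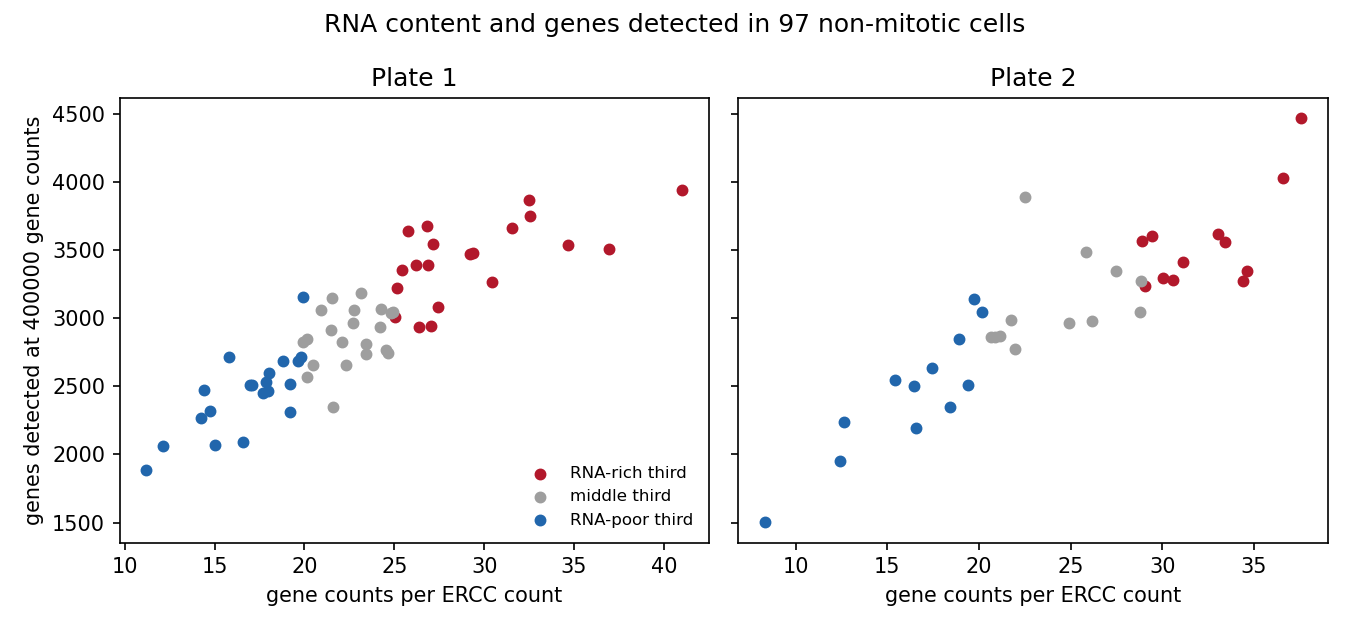
Genes detected after thinning to 400000 gene counts (y axis) against gene counts per ERCC count (x axis) in each of 97 non-mitotic cells, by plate; red, grey and blue points are the RNA-rich, middle and RNA-poor cells. Genes detected climb with the ratio on both plates, with medians of 3476 in RNA-rich and 2506.5 in RNA-poor cells.

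Genes of DNA replication differed between the ends although each cell had at most 1 mitotic gene at 10 CPM. Of 31 S phase genes, a median of 6 in RNA-rich and 2 in RNA-poor cells were at 10 CPM or more. The ends overlapped, with 1 to 23 such genes in RNA-rich and 0 to 9 in RNA-poor cells. Cells with 6 or more of them, called the S class here, made up 23 of 32 RNA-rich cells (71.9%, 53.3 to 86.3), 4 of 32 RNA-poor cells (12.5%, 3.51 to 28.99) and 11 of 33 middle cells. Thinned to equal depth, the medians were again 6 and 2. Pcna, the sliding clamp of DNA polymerase, had a pooled level of 135.3 CPM in RNA-rich and 45.9 CPM in RNA-poor cells, pooled meaning summed counts of the gene over summed gene counts of the end. Mcm6, a subunit of the replicative helicase, had 201 CPM in RNA-rich and 51.3 CPM in RNA-poor cells. Rrm1, a ribonucleotide reductase subunit, had 92.7 CPM in RNA-rich and 15.4 CPM in RNA-poor cells. Each of these was read unevenly over cells, with a median of 0 in RNA-poor cells. RNA-rich cells also had more genes of any kind detected at equal depth, and whether the S phase counts reflect cycle state was not tested. Because of this difference in S phase genes, the counts over all genes, the abundant genes and the list medians below are given also with the S class left out. Terciles were then drawn again, with 19 cells at each end. In that comparison 699 more genes were detected in RNA-rich cells, and Pcna and Rrm1 were lower in them (log2 ratios -0.42 and -0.68). Both are among the 31 genes that define the S class, so their lower values follow from the choice of cells.

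In CPM, 7337 genes had a pooled level of 10 CPM or more and were compared. A gene was called where its ratio was at least 1.5-fold the same way on both plates, after 1 CPM was added to each level. By this rule 876 genes (11.9%) were higher and 648 (8.83%) lower in RNA-rich cells, and 1269 genes passed 1.5-fold in opposite directions on the plates. The plates gave little in common for rarely read genes: of genes with 10 to 30 CPM, 458 were higher and 341 lower on both plates while 748 were opposite. With the S class left out, 984 of 7123 genes (13.8%) were higher and 760 (10.7%) lower. Genes with more counts repeated better and were called less often. At 10 to 30 CPM 15.7% were higher and 11.7% lower, against 6.77% higher and 4.31% lower at 100 to 300 CPM. The shares of all genes set beside the lists below are not matched for level. Of 402 genes of 300 CPM or more, 16 were higher, 9 lower and 2 opposite, and the log2 ratios of the plates had a Pearson correlation over genes of 0.34 from 300 to 1000 CPM and 0.59 above. The account below therefore leans on these 25 genes, a limit chosen after the values were seen, and on lists of genes.

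**Figure D2:**
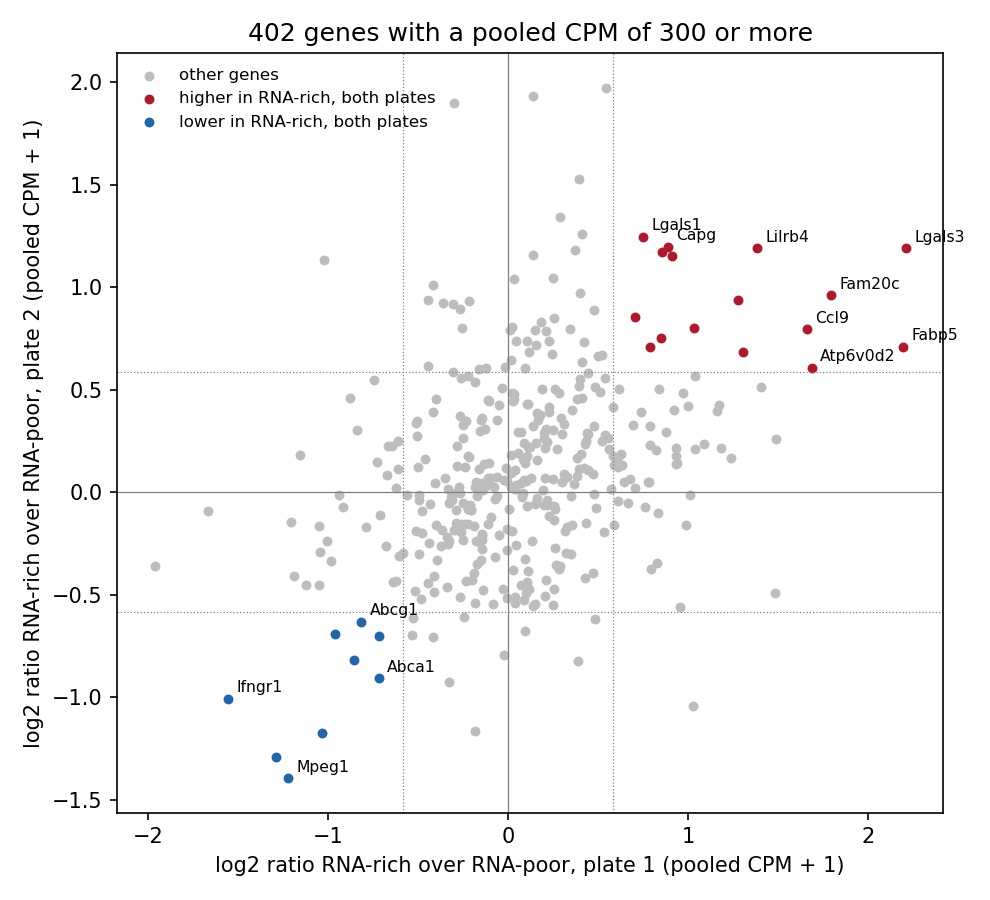
Log2 ratio of pooled CPM + 1, RNA-rich over RNA-poor, on plate 1 (x axis) and plate 2 (y axis) for 402 genes with a pooled level of 300 CPM or more; red and blue points are genes past 1.5-fold (dotted lines) on both plates. The 16 red genes lie at upper right with Lgals3 and Fabp5 farthest on plate 1, and the 9 blue genes at lower left.

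The 16 abundant genes higher in RNA-rich cells included galectins, a fatty acid binding protein and subunits of the lysosomal proton pump. Lgals3, which encodes galectin-3, a sugar-binding protein of phagocytes (chromosome 14, 47367751 to 47386160, plus strand, mm10), had 0 to 6644 CPM in single RNA-rich cells with a median of 1462, against 0 to 3386 CPM with a median of 509 in RNA-poor cells. The ends overlapped, yet 29 of 32 RNA-rich cells lay above the RNA-poor median and 2 of 32 RNA-poor cells above the RNA-rich median. Its pooled level was 2102 CPM in RNA-rich and 609 CPM in RNA-poor cells, a log2 ratio of 2.21 on plate 1 and 1.19 on plate 2. In the middle cells the median was 1525 CPM, close to that of the RNA-rich cells.

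Fabp5, a fatty acid binding protein, ran from 10.3 to 1561 CPM in RNA-rich cells with a median of 562, and from 0 to 1565 CPM in RNA-poor cells with a median of 117.7. It was read in 32 of 32 RNA-rich and 23 of 32 RNA-poor cells, with log2 ratios of 2.19 on plate 1 and 0.71 on plate 2. Lgals1, the gene of galectin-1, had a median of 788 CPM in RNA-rich and 373 CPM in RNA-poor cells, and log2 ratios of 0.75 on plate 1 and 1.25 on plate 2. Capg, an actin filament capping protein of macrophages, had medians of 404 CPM in RNA-rich and 228 CPM in RNA-poor cells. Its median in the middle cells, 612 CPM, was above that of the RNA-rich cells. These 4 genes were present in both ends. Lgals1 gave a count in 31 RNA-rich and 30 RNA-poor cells, so it differed in level alone, whereas Fabp5 and Capg, with a count in 31 RNA-rich and 26 RNA-poor cells, also differed in the cells that gave one.

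Subunits of the vacuolar proton pump, which acidifies lysosomes, were also among the higher genes. Atp6v1a, the catalytic subunit of its cytosolic part, had 0 to 1869 CPM in RNA-rich cells with a median of 467 and 0 to 904 CPM in RNA-poor cells with a median of 133.7. Its log2 ratios were 1.28 on plate 1 and 0.94 on plate 2. Atp6v0d2, a membrane-part subunit found in macrophages and osteoclasts, was read in 18 of 32 RNA-rich and 10 of 32 RNA-poor cells, with a pooled log2 ratio of 1.16. It was read in 23 of 33 middle cells, whose median of 266 CPM was above the 219 CPM of RNA-rich cells. Atp6v1e1 and Atp6v1h were also called higher, with log2 ratios of 0.68 and 1.58, which makes 4 higher and 0 lower of 25 compared genes of the lysosome membrane and pump (median log2 ratio 0.23, and 0.37 with the S class left out). That share of higher genes, 16%, was near the 11.9% of all compared genes. The luminal enzymes had ratios near equal: of 35 lysosomal hydrolases 1 was higher and 1 lower, with a median of -0.13 (-0.09 without the S class), and the protease genes Ctsb and Ctsd had log2 ratios of -0.04 and -0.08.

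Other abundant genes higher in RNA-rich cells were of several kinds. Ccl9, a chemokine, had medians of 808 CPM in RNA-rich and 198 CPM in RNA-poor cells. Fam20c, a kinase of secreted proteins that include osteopontin, the product of Spp1, was read in 25 RNA-rich and 12 RNA-poor cells and had log2 ratios of 1.79 on plate 1 and 0.96 on plate 2. Lilrb4, an inhibitory receptor of myeloid cells whose mouse locus holds a close paralog, had a log2 ratio of 1.34, and the counting may divide reads between the copies. The others were Rnh1, Litaf, Dab2, Cnbp, Bzw1, Nras and Mdh2, with log2 ratios of 0.75 to 1.11. With the S class left out, 16 of 16 of these genes kept the sign of their pooled ratio but only 6 were still called (Lilrb4, Ccl9, Capg, Lgals1, Litaf and Bzw1). Lgals3, Fabp5, Atp6v1a, Atp6v0d2 and Fam20c were among the 10 that were not: on plate 2 their log2 ratios were then 0.44 for Lgals3, 0.24 for Fabp5, 0.58 for Atp6v1a, 0.44 for Atp6v0d2 and -0.49 for Fam20c. Of the 19 RNA-rich cells of that comparison, 9 were RNA-rich in the main one too.

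Genes lower in RNA-rich cells held receptors and cholesterol exporters. Ifngr1, a chain of the interferon gamma receptor, had 0 to 1695 CPM in RNA-rich cells with a median of 295, against 0 to 3619 CPM with a median of 888 in RNA-poor cells. Only 3 RNA-rich cells lay above the RNA-poor median, while 28 RNA-poor cells lay above the RNA-rich median, and the log2 ratios were -1.56 on plate 1 and -1.01 on plate 2. Abca1 and Abcg1 export cholesterol to lipoproteins. Abca1 had medians of 332 CPM in RNA-rich and 619 CPM in RNA-poor cells, and Abcg1 of 809 CPM in RNA-rich and 1386 CPM in RNA-poor cells. Their log2 ratios were -0.72 on plate 1 and -0.91 on plate 2 for Abca1, and -0.81 on plate 1 and -0.63 on plate 2 for Abcg1. Mpeg1, the pore-forming perforin-2 of macrophages, had medians of 158 CPM in RNA-rich and 323 CPM in RNA-poor cells. The others were F11r, Plxdc2, Gdi2, Ncstn and D4Wsu53e (named Rsrp1 in the GENCODE M21 annotation), with log2 ratios of -1.29 to -0.71. With the S class left out, 9 of 9 kept the sign of their pooled ratio and 6 were called, whereas Abcg1, Plxdc2 and Ncstn were not. Lipid handling genes as a list had 1 of 19 higher (Fabp5) and 2 lower (Abca1 and Abcg1, 10.5%, near the 8.83% of all compared genes). The list had a median log2 ratio of -0.19, also without the S class, and took 4.06% of gene counts in RNA-rich and 5.41% in RNA-poor cells.

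**Figure D3:**
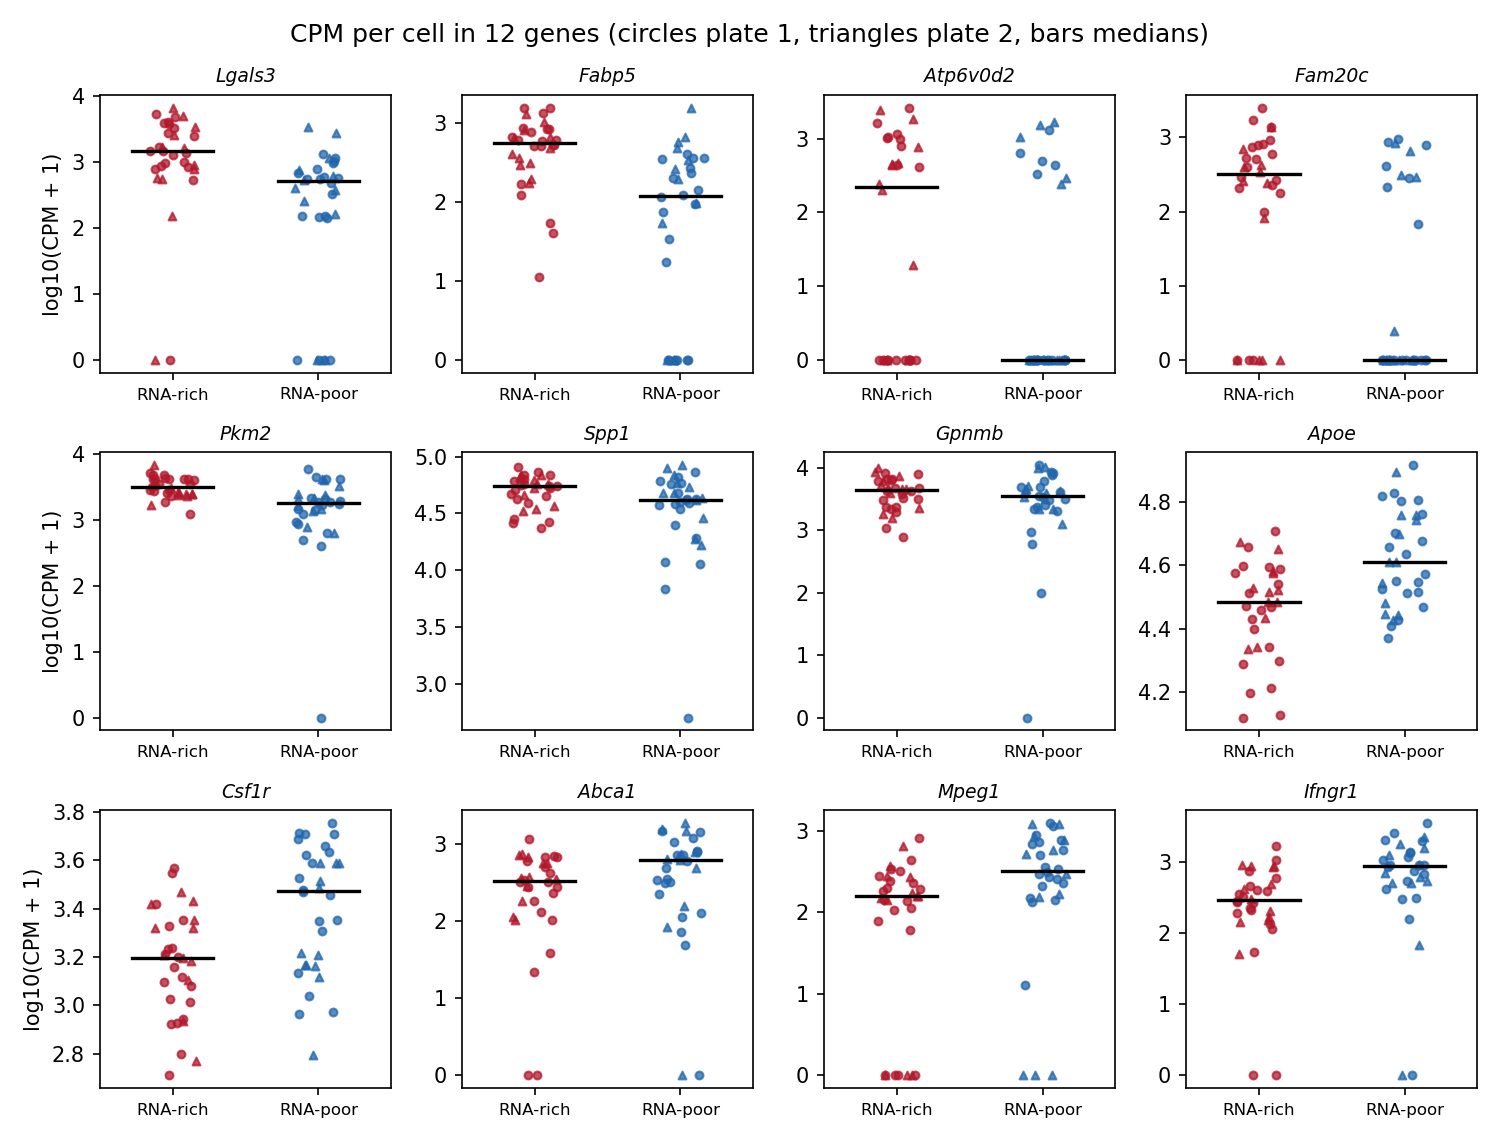
Log10 of CPM + 1 in each RNA-rich (left, red) and RNA-poor (right, blue) cell for 12 genes; circles are plate 1, triangles plate 2 and black bars medians. Lgals3, Fabp5 and Pkm2 sit higher in RNA-rich cells, Apoe, Csf1r and Ifngr1 sit lower, and all 12 genes overlap between the ends.

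The genes with the most counts moved little in CPM, in either direction. Spp1, the gene of the secreted protein osteopontin, had 23458 to 81518 CPM in RNA-rich cells with a median of 55445 and 501 to 84013 CPM in RNA-poor cells with a median of 41747 (pooled log2 ratio 0.31). Apoe, the lipoprotein that carries the lipids Abca1 and Abcg1 export, had 13114 to 51180 CPM in RNA-rich cells with a median of 30542 and 23480 to 82750 CPM in RNA-poor cells with a median of 40840. Of the RNA-rich cells 4 lay above the RNA-poor median for Apoe, and of the RNA-poor cells 24 lay above the RNA-rich median. Its log2 ratio was -0.62 on plate 1 and -0.43 on plate 2, below the fold of a call on plate 2, and it had the same sign in every alternative scaling and ranking tried, from -0.69 to -0.37. Gpnmb, the gate protein, had a log2 ratio of 0.11, and Clec7a, the receptor of the gate, of -0.23. The gate genes thus differed by less than the 1.5-fold limit.

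**Figure D4:**
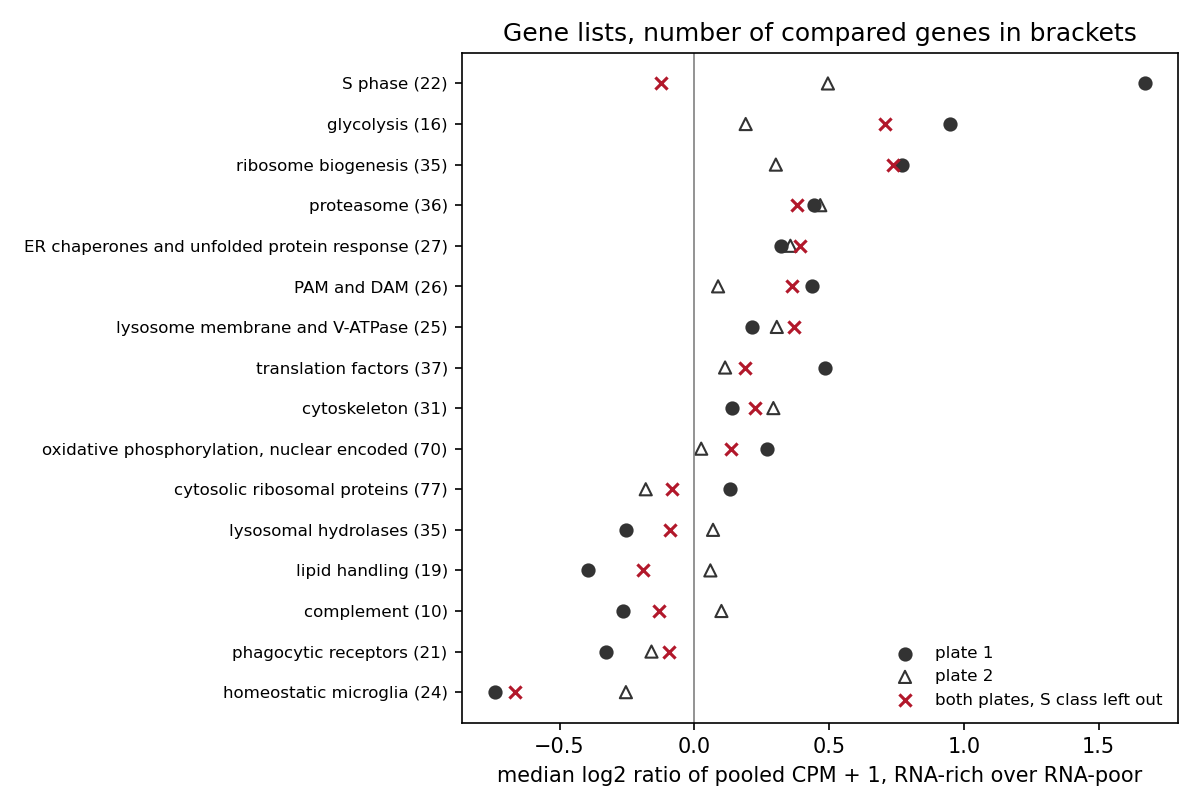
Median log2 ratio of pooled CPM + 1, RNA-rich over RNA-poor, of 16 gene lists on plate 1 (filled circles), on plate 2 (triangles) and on both plates with the S class left out (crosses), with the number of compared genes in brackets. S phase, glycolysis and ribosome biogenesis lie highest and homeostatic microglia lowest on plate 1, and plate 2 values are nearer to 0 for most of them. The S phase cross lies at -0.12, which follows from the choice of cells, as genes of this list define the S class.

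The lists of growth genes differed among themselves; the median of all compared genes was 0.03, and 11.9% of them were higher. In ribosome biogenesis 10 of 35 genes were higher and 0 lower, with a median log2 ratio of 0.65 (0.77 on plate 1 and 0.30 on plate 2), and with the S class left out the median was 0.74. Srm, which makes spermidine and is a known target of Myc, was read in 24 RNA-rich and 4 RNA-poor cells, with pooled levels of 165 CPM in RNA-rich and 17.4 CPM in RNA-poor cells. Nop16, a nucleolar protein, had 133.5 CPM in RNA-rich and 30.2 CPM in RNA-poor cells. Nop58, a core protein of the particles that methylate ribosomal RNA, had 61.9 CPM in RNA-rich and 4.64 CPM in RNA-poor cells. Gnl3, the nucleolar GTPase nucleostemin, had 46.7 CPM in RNA-rich and 3.31 CPM in RNA-poor cells. The best read members were less clear: Npm1 had a log2 ratio of 0.82 on plate 1 and 0.21 on plate 2, and Ncl of 0.77 on plate 1 and -0.46 on plate 2. The ribosomal proteins themselves kept their share, with 1 of 77 higher, 0 lower and a median of 0.02 (-0.08 without the S class). Genes of the mTORC1 and Myc list had 1 of 18 higher, 0 lower and a median of 0.43 (0.46 without the S class), but the median was below 0 when the ends were made wider or narrower or the plates ranked together. Nuclear genes of oxidative phosphorylation had 2 of 70 higher (2.86%), 0 lower and a median of 0.19 (0.13 without the S class).

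Glycolysis followed on plate 1 more than on plate 2. Of 16 glycolytic genes 3 were higher (Slc2a1, a glucose transporter, Slc16a1, a lactate transporter, and Eno1) and 0 lower. The share higher was 18.75%, against 11.9% of all compared genes, and the median was 0.95 on plate 1, 0.19 on plate 2 and 0.71 without the S class. Ldha, lactate dehydrogenase A, had 1134 to 6438 CPM in RNA-rich cells with a median of 2670 and 251 to 3474 CPM in RNA-poor cells with a median of 1432, a log2 ratio of 1.24 on plate 1 and 0.17 on plate 2. Pkm2, pyruvate kinase (Pkm in the annotation), had medians of 3113 CPM in RNA-rich and 1772 CPM in RNA-poor cells, with log2 ratios of 0.84 on plate 1 and 0.50 on plate 2. For Pkm2, 30 of 32 RNA-rich cells lay above the RNA-poor median.

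Lists of protein turnover and cell shape had medians above that of all genes. Of 36 proteasome genes 5 were higher (13.9%, near the 11.9% of all genes) and 0 lower. In ratio 23 were above 1 on both plates, 0 below on both and 13 did not share a direction. Of all 7337 compared genes, 52.5% had the same sign on both plates, counting both directions. The proteasome median was 0.44 on plate 1, 0.47 on plate 2 and 0.38 without the S class. Psmd12, Psmd1 and Psma3 were among those called, with log2 ratios of 1.22, 1.39 and 0.91. Of 31 cytoskeleton genes 6 were higher (19.4%) and 0 lower (median 0.20, and 0.23 without the S class), with Tuba1b, a tubulin, at 281 CPM in RNA-rich and 118.5 CPM in RNA-poor cells. Of 37 translation factors 7 were higher (18.9%) and 0 lower (median 0.21, and 0.19 without the S class), Eif4e (the cap-binding protein) and Eif6 among them. Of 27 genes of the endoplasmic reticulum 3 were higher (11.11%, no more than among all genes) and 0 lower (median 0.35, and 0.39 without the S class), and its chaperone Hspa5 had medians of 1613 CPM in RNA-rich and 805 CPM in RNA-poor cells but missed the fold on plate 2, where its log2 ratio was 0.43.

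Homeostatic microglia genes, which mark the resting state of the adult brain, had lower shares in RNA-rich cells, most of all on plate 1. Of 24 such genes 4 were lower (Sall1, Tgfbr1, Tmem119 and Crybb1, 16.7% against 8.83% of all compared genes) and 0 higher. In ratio 16 were below 1 on both plates, 1 was above on both and 7 did not share a direction. Of all 7337 compared genes, 52.5% had the same sign on both plates, counting both directions. The median log2 ratio of the list was -0.74 on plate 1, -0.25 on plate 2 and -0.67 without the S class. Csf1r, the receptor that microglia need to survive, had 512 to 3705 CPM in RNA-rich cells with a median of 1572 and 623 to 5703 CPM in RNA-poor cells with a median of 2974. Its log2 ratio was -1.05 on plate 1 and -0.29 on plate 2. P2ry12, a purinergic receptor, had log2 ratios of -1.96 on plate 1 and -0.36 on plate 2, and Cx3cr1, the fractalkine receptor, of -0.94 on plate 1 and -0.01 on plate 2. The abundant genes of the list were therefore lower on plate 1 by more than on plate 2, and Sall1, called here, had a log2 ratio of 0.18 with rim wells left out, an alternative chosen after seeing the data. The PAM and DAM genes had a median of 0.29 (0.36 without the S class) with 4 of 26 higher (Lgals3, Lgals1, Fabp5 and Cst7, 15.4% against 11.9% of all genes) and 0 lower, and such genes marked the gate of the sort.

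Phagocytic receptors had 1 of 21 higher and 5 lower (23.8% against 8.83% of all compared genes), with a median of -0.26 (-0.09 without the S class). Fcgr2b, an inhibitory antibody receptor, had 54.03 CPM in RNA-rich and 186 CPM in RNA-poor cells. Mrc1, the mannose receptor of border macrophages, had 110 CPM in RNA-rich and 243 CPM in RNA-poor cells and was read in 17 cells of each end. Mertk, which engulfs dying cells, had 87.1 CPM in RNA-rich and 168 CPM in RNA-poor cells, whereas the scavenger receptor Msr1 had 94.7 CPM in RNA-rich and 36.04 CPM in RNA-poor cells. Markers of other cells were few. The summed level of 13 border macrophage markers, 4 of them without a count in either end, ran from 0 to 2506 CPM in RNA-rich cells with a median of 583 and from 0 to 2857 CPM in RNA-poor cells with a median of 738. Of 12 oligodendrocyte markers 8 had no count in either end, and the sum ran from 0 to 626 CPM in RNA-rich and 0 to 468 CPM in RNA-poor cells, with Cspg4 read in 8 RNA-rich and 1 RNA-poor cells. The medians of astrocyte, neuron, endothelial, mural, monocyte, dendritic, lymphocyte and red cell markers were 0 in both ends. For the neutrophil list, in which Csf3r gave most cells with a count, the medians were 9.54 CPM in RNA-rich and 41.3 CPM in RNA-poor cells. The markers' part in the results was not tested.

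The genes with the widest gap on both plates, chosen by the smaller of the plate ratios, were mostly rarely read. The 15 higher ones had 25.9 to 98.7 CPM over the compared cells and included Elovl5, a fatty acid elongase, and Cse1l, a nuclear export receptor, beside Srm, Nop16, Nop58 and Gnl3. The 15 lower ones included Il16, a cytokine precursor read in 6 RNA-rich and 16 RNA-poor cells, Picalm, an endocytosis adaptor, Ypel3 and the TGF-beta receptor Tgfbr1. At these levels opposite and agreeing calls were of like number, as counted above, so the single genes are given as values only.

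The mitotic cells, which were outside the comparison, were ranked in the same way, with 15 cells at each end. Of 93 called genes of 100 CPM or more that were higher in RNA-rich cells, 62 were higher there too (66.7%, against 51.2% of 1539 genes of that level), and of 58 that were lower, 38 were lower (65.5%, against 48.8%). From 10 CPM up the shares were closer to those of all genes. Of 782 higher genes, 457 were higher there too (58.4%, against 51.7% of 6568 genes). Of 528 lower genes, 303 were lower (57.4%, against 48.3%). Lgals3 had a log2 ratio of 0.57, Ccl9 of 1.43, Capg of 1.4 and Apoe of -0.57 in the mitotic cells, while Atp6v0d2 was at -0.55. Of the 25 abundant genes 19 kept their sign, yet only 4 higher and 1 lower did so on both plates. The list medians were smaller, at 0.26 for ribosome biogenesis, 0.39 for glycolysis and -0.03 for the homeostatic genes. With 4 mitotic cells at each end on plate 2, these values rest mainly on plate 1.

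Per ERCC count most genes were higher in RNA-rich cells, and the ranking fixed this overall shift. The ratio of the totals was 1.75 on plate 1 and 2.11 on plate 2, and 3152 of 7337 genes (43%) were past 1.5-fold higher on both plates while 166 (2.26%) were past it lower. Of 1539 genes of 100 CPM or more, 1347 (87.5%) were higher on both plates and 16 lower on both. On each plate a gene's ratio per ERCC count is its CPM ratio times the ratio of the totals, apart from the pseudocounts. The values per spike-in here and below thus restate the CPM ratios on another scale and are no second observation. The 9 abundant genes lower in CPM therefore lay nearer to equal, with log2 ratios over both plates of -0.37 for Mpeg1 to 0.23 for Ncstn. Ifngr1 was the farthest on a single plate (-0.75 on plate 1, 0.07 on plate 2). Abca1 had 9.77 counts per 1000 ERCC counts in RNA-rich and 9.20 in RNA-poor cells on plate 1, and 13.3 in RNA-rich and 11.8 in RNA-poor cells on plate 2. Abcg1 had 25.1 in RNA-rich and 25.3 in RNA-poor cells on plate 1, and 29.6 in RNA-rich and 21.8 in RNA-poor cells on plate 2. Btg1, an antiproliferative gene, had 2.13 in RNA-rich and 2.26 in RNA-poor cells on plate 1, and 1.81 in RNA-rich and 1.84 in RNA-poor cells on plate 2.

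Only a few abundant genes were lower per spike-in on both plates, Mpeg1 among them with 5.66 in RNA-rich and 7.57 in RNA-poor cells on plate 1, and 6.05 in RNA-rich and 7.56 in RNA-poor cells on plate 2. Lgals3 was at the other end, with 63.05 counts per 1000 ERCC counts in RNA-rich and 7.79 in RNA-poor cells on plate 1, and 64.001 in RNA-rich and 13.3 in RNA-poor cells on plate 2. The homeostatic list had a median log2 ratio per spike-in of 0.06 on plate 1 and 0.75 on plate 2, against 0.86 on plate 1 and 1.1 on plate 2 for all compared genes. Apoe, with 851 in RNA-rich and 750 in RNA-poor cells on plate 1, and 1070 in RNA-rich and 684 in RNA-poor cells on plate 2, was higher by less than the total on both plates.

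**Figure D5:**
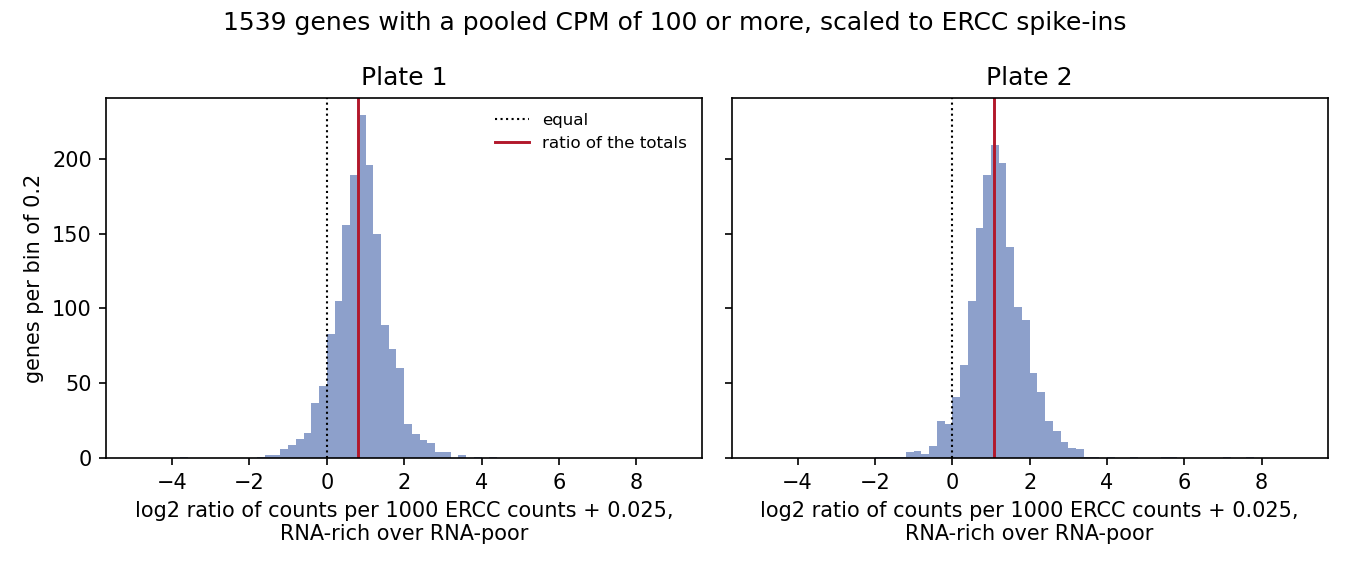
Number of genes (y axis, bins of 0.2) by log2 ratio of counts per 1000 ERCC counts + 0.025, RNA-rich over RNA-poor (x axis), on each plate for 1539 genes with a pooled level of 100 CPM or more; the dotted line marks equal amounts and the red line the ratio of the totals (log2 0.81 on plate 1 and 1.08 on plate 2). Most genes lie right of the dotted line and around the red line.

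The promoters of the leading galectin gene and of the pump subunit are shown because both genes were higher in share on both plates and the E-box CACGTG, read on both strands as it is its own reverse complement, is the site bound by Myc and by the lysosomal regulator TFEB. The windows hold 250 bases before and 50 after the start in RefSeq's GRCm38.p6, Lgals3 at chr14:47373610-47373909 on the plus strand and Atp6v1a at chr16:44139210-44139509 on the minus strand, and capitals mark the E-box.
Lgals3: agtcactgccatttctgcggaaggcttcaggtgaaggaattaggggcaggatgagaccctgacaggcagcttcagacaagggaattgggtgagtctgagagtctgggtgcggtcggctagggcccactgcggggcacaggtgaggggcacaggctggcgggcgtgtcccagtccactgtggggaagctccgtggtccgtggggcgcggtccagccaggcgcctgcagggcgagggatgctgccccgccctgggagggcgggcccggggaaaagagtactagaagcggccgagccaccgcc
Atp6v1a: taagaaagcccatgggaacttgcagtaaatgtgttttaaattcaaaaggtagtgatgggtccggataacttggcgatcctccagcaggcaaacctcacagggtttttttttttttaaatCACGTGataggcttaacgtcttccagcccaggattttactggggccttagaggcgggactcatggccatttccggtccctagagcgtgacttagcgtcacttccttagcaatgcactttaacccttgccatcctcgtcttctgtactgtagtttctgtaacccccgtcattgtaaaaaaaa
The window of Atp6v1a holds 1 E-box, upstream of the start, and that of Lgals3 holds none. Both windows lie inside the GENCODE M21 gene spans, which begin at 47367751 for Lgals3 and, on the minus strand, at 44139705 for Atp6v1a. Other start sites of these genes were not searched. The E-box was found in 7.24% of all 27025 promoters given, in 11.3% of the 5423 compared genes, in 15.5% of 660 genes higher in RNA-rich cells and in 10.06% of 467 lower ones. By list it was in 28.6% of 28 lysosomal hydrolases, 18.75% of 16 homeostatic genes and 17.9% of 28 ribosome biogenesis genes. For glycolysis it was in 13.3% of 15 genes and for ribosomal proteins in 9.09% of 55. Whether the motif goes with the direction was not tested. Of the 25 abundant called genes 18 had a promoter given, and 4 of these held the E-box. A match is a stretch of letters and no sign of binding.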

How the data were processed

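Single-cell read counts per gene were deposited for 143 cells, as whole numbers with 23337 gene rows and 92 ERCC rows. Per the submitters' processing notes, the build was mm10 and the tools named are HTSeq, Picard, STAR 2.5.3a and Trim Galore 0.4.3; strand setting and annotation are not given in the sources used here. Positions came from GENCODE M21 and promoters from RefSeq GRCm38.p6. The counts are reads, not molecules, so amplification adds error that the intervals leave out.

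CPM, pooled levels, thinning (fixed seed) and ratios were computed with Python 3.11.15, numpy 2.4.6, pandas 2.3.3 and scipy 1.17.1; figures with matplotlib 3.10.9. Pseudocounts were 1 CPM and 0.025 counts per 1000 ERCC counts. No normalisation between plates was made, and plates are shown apart. Depth was 436333 to 999060 gene counts per compared cell. The ratio, call and thinning steps were tested on simulated data, with changes of 2-fold or more set only in genes of 100 CPM or more. Recovery was required only for the changes larger than 2-fold. That test does not cover changes of 2-fold or less, false calls among unchanged genes, or changes in genes with fewer counts. Cells are not replicates, so no p-value is given. Genes were named by gap on both plates, total counts, gate, list rank, near-equal spike-in amount and level. The members and lists were chosen with earlier results of these data known. The closing section gives the alternatives.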

Additional observations from a re-analysis of the deposited data

How the results depend on the processing

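No paired analysis was possible because all cells belong to 1 group and 1 pool and the labels give no replicate numbers. Of 1800 values of single named genes under 20 alternatives, 3 of called genes changed sign: Pcna (-0.42) and Rrm1 (-0.68) with the S class left out, and Sall1 (0.18) with rim wells left out. Sign changes were counted for called genes only, although the 1800 values include genes that were not called. A changed fold limit or level filter leaves the ratio of a gene as it was. A called gene also has the same sign on each plate by definition. The count of 3 is therefore no measure of stability. Pcna and Rrm1 are among the genes that define the S class, so their change follows from the choice of cells. Leaving out rim wells and leaving out cells with no Gpnmb count were chosen after seeing the data.

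The median log2 CPM ratio of all genes stayed near 0, at 0.012 without Rn45s, -0.0097 without the 15 genes of most counts, 0 with the median gene set to equal, 0.067 with no filter on low values, 0.015 with 48 cells at each end, 0.050 with 24 cells an end, 0.017 with no mitotic gene on, 0.0092 with the S class left out, 0.018 with plates ranked together, 0.079 on plate 1, 0.061 on plate 2 and -0.0026 without rim wells. The proteasome median was 0.39 without Rn45s, 0.37 without the 15 genes, 0.38 with the median gene at equal or the S class left out, 0.33 with 48 cells an end or plates ranked together, 0.52 with 24, 0.47 with no mitotic gene on or on plate 2, 0.44 on plate 1 or at 50 CPM, 0.32 without rim wells, 0.37 ranked by the 10 most abundant spike-ins and 0.39 without the cells lacking Gpnmb. On plate 2 alone, the medians of homeostatic genes (-0.25), S phase (0.50) and ribosome biogenesis (0.30) were nearer to 0. The S phase median was -0.12 with the S class left out, a class defined by genes of that list. The list of mTORC1 and Myc genes had 0.43, but -0.12 with 48 cells an end, -0.067 with 24 cells an end and -0.068 with plates ranked together, and the gate genes 0.13 with no mitotic gene on.

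Counts of genes higher and lower in CPM were 227 and 189 at 50 CPM or more, 482 and 323 at 2-fold, 2266 and 1930 on plate 1 alone, 2464 and 2031 on plate 2 alone, and 1408 higher with no filter. Per ERCC count they were 778 and 789 with the median gene at equal (homeostatic median -0.58, all genes 0), 1550 and 17 at 50 CPM or more, and 1836 and 89 at 2-fold. Plate 2 alone gave 4941 and 838. Lower counts were 307 with no filter, 91 with a pseudocount of 10 CPM, 269 with the S class left out, 787 on plate 1 alone and 250 without rim wells. The all-gene median per ERCC count was 0.78 with that pseudocount, 0.73 with 48 cells an end and 1.21 with 24 cells an end. Genes detected differed by 741.5 with 48 cells an end, 1034 with 24 cells an end, 907 with no mitotic gene on, 699 with the S class left out, 935 with plates ranked together or without Rn45s in the ranking, 1010 without rim wells, 1006.5 with all reads, 977 without Rn45s in the thinning or on plate 2, and 985.5 on plate 1. The other causes were not tested; calls on 1 plate lack the requirement of agreement. The opposite calls between plates limit what rarely read single genes show, and thinning to 200000 counts gave a difference of 966.5 genes detected.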
